A study of Mus musculus with 36 samples.

Results

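The response of 9 genes of the reactive astrocyte state, Lcn2, C3, Serpina3n, Steap4, Ptx3, Gfap, Vim, Tnc and Timp1, was examined in cultured mouse astrocytes and, beside them, in cultured mouse microglia. The genes were picked by symbol in the annotation of the astrocyte table, where all 9 were found among 14551 genes. All 9 were also listed among the 15385 genes of the microglial table. Brains of C57BL/6 pups aged 2 to 4 days were pooled, and mixed glia were grown for 12 days. Microglia were then taken by CD11b selection, and astrocytes were selected from the cells left over. Cells were treated for 4 h with DMSO (the vehicle, written DSMO in the astrocyte labels), with Nec-1s, an inhibitor of RIPK1 kinase, or with stimuli that engage RIPK1. T/S/Z is TNF with a Smac mimetic and the caspase inhibitor zVAD, which leads to necroptosis in sensitive cells, and T/S/Z/N is the same with Nec-1s. T/5z is TNF with the TAK1 inhibitor 5z-7, which leads to RIPK1-dependent apoptosis in sensitive cells, and T/5z/N is the same with Nec-1s. No group received TNF, the Smac mimetic, zVAD or 5z-7 alone, so an effect of T/S/Z or T/5z cannot be assigned to any of their parts. There were 36 libraries. Each astrocyte treatment (DMSO, Nec-1s, T/S/Z, T/S/Z/N) had 3, and each microglial treatment, which included T/5z and T/5z/N as well, had 4.

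Astrocytes become reactive after injury, infection and inflammation. They then make more of their intermediate filaments, secrete acute-phase and innate immune proteins, and remodel the surrounding matrix, and microglial cytokines such as TNF and interleukin 1 alpha are known inducers of this state. Lcn2 encodes lipocalin 2, which binds iron-loaded siderophores. C3 encodes the central complement component, Ptx3 a soluble pattern recognition protein, and Serpina3n a secreted serine protease inhibitor. Steap4 encodes a metalloreductase of iron and copper. Gfap and Vim encode intermediate filaments, Tnc the matrix glycoprotein tenascin C, and Timp1 an inhibitor of matrix metalloproteinases.

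Values are log2(FPKM + 1) as deposited, where FPKM is the number of fragments per kilobase of exon scaled for library size, or the FPKM computed back from them. The error after ± is the SD between libraries. A change was called when it exceeded 1.5-fold (0.585 on the log2 scale) with an adjusted p under 0.05 over all genes tested by limma, and changes are differences of log2 values. The labels name a different sequencing provider for each cell type, while the methods name 1 platform for both, so cell type and any difference in sequencing cannot be told apart. The tables were normalized separately and no test crossed them. In DMSO astrocytes, the summed FPKM of 9 astrocyte markers was 1431 to 1486, that of 12 microglial markers 103 to 112 and that of 6 fibroblast markers 612 to 626. In DMSO microglia these sums were 173 to 232, of which Glul alone had 168 to 226, then 9375 to 10504 and 6.66 to 9.10. The labelled cell types thus held their own markers, and the astrocyte libraries also held RNA of fibroblast genes. In bulk cultures, fewer cells of a type and less RNA per cell cannot be told apart.

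In GRCm38, the build of the deposited coordinates, Lcn2 (ENSMUSG00000026822) lies at chr2:32384633-32388252 on the minus strand, C3 (ENSMUSG00000024164) at chr17:57203970-57228136 on the minus strand, and Serpina3n (ENSMUSG00000021091) at chr12:104406729-104414329 on the plus strand. Steap4 (ENSMUSG00000012428) lies at chr5:7960457-7982213 and Ptx3 (ENSMUSG00000027832) at chr3:66219910-66225805, both on the plus strand. Gfap (ENSMUSG00000020932) lies at chr11:102887336-102900912 on the minus strand and Vim (ENSMUSG00000026728) at chr2:13573927-13582826 on the plus strand. Tnc (ENSMUSG00000028364) lies at chr4:63959785-64047015 on the minus strand and Timp1 (ENSMUSG00000001131) at chrX:20870166-20874735 on the plus strand. The annotation marked 5 of the 9 as confounded, and these were the 5 that overlap another gene in GENCODE M21: C3 overlaps Mir6978 on the same strand, and Ptx3, Gfap, Tnc and Timp1 overlap Veph1, Gm26668, 8030451A03Rik and Syn1 on the opposite strand. Only the astrocyte libraries were stated to be strand-specific, and the sources used here do not state whether counting used the strand, so values of these 5 may hold reads of the neighbour. Exon models differed between the tables for 5 genes, Gfap, C3, Vim, Lcn2 and Ptx3, and Lcn2 had 2623 bases of exon in the astrocyte table and 915 in the microglial table.

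Because the genes with the largest changes are classical targets of inflammatory transcription factors, the 250 bases before the RefSeq transcription start (GRCm38.p6) of each gene were searched on both strands. The letters were TTNNGCAA for C/EBP proteins, TTCNNNGAA for STAT proteins, TGANTCA for AP-1 and the kappaB consensus for NF-kappaB, all chosen with these sequences in view. The C/EBP letters occurred in 4 of the 9 genes (Lcn2, C3, Steap4 and Ptx3) and in at least 1 promoter of the same length in 10.8% of 27025 mouse genes. The kappaB consensus occurred in Steap4 and Vim, 2 of the 9, and in 8.23% of genes, the STAT letters in Steap4 alone and in 8.13%, and the AP-1 letters in none of the 9 and in 7.82%. The 4 promoters with a C/EBP match are shown 5′ to 3′ on the strand of the gene, with every match in capitals.
Lcn2 (chr2:32387740-32387989, minus strand): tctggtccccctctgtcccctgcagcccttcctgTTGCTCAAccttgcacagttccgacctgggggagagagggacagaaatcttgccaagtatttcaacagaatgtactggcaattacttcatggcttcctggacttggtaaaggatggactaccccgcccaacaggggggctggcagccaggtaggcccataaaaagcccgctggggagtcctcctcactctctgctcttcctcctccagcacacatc
C3 (chr17:57228137-57228386, minus strand): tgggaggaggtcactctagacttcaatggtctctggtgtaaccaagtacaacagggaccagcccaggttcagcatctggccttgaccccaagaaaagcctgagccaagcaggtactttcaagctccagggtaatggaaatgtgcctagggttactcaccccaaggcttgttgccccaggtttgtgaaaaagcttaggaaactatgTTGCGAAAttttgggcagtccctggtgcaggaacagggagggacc
Steap4 (chr5:7960222-7960471, plus strand): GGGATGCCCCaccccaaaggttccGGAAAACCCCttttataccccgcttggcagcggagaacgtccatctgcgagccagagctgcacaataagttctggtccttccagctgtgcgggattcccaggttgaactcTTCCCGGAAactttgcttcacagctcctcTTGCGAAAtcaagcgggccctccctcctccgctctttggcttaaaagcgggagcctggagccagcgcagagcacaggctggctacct
Ptx3 (chr3:66219637-66219886, plus strand): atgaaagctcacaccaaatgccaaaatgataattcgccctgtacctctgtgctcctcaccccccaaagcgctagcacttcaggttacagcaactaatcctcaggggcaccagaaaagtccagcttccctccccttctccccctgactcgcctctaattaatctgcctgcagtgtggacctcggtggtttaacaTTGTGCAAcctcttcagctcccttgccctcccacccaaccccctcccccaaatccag
The C/EBP match begins 216 bases before the start in Lcn2, 45 in C3, 87 in Steap4 and 57 in Ptx3. In Steap4, kappaB matches begin 250 and 226 bases before the start and the STAT match 116 bases before it. The RefSeq starts of Lcn2 and Steap4 lie inside the genes as the astrocyte table bounds them, and that of Ptx3 lies before its gene. A match describes these letters only, and no binding was measured.

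To describe the unstimulated state, levels were ordered in the DMSO astrocyte libraries. The filament genes stood highest, with Vim at 4736 ± 413 FPKM (n = 3) and Gfap at 2005 ± 58.0. Serpina3n followed at 128 ± 5.55, and then Tnc at 113 ± 5.50, Timp1 at 113 ± 6.57 and C3 at 105 ± 7.66, of which neighbours in the order overlapped between libraries. Ptx3 stood at 67.0 ± 6.83, and Lcn2 at 10.2 ± 2.23 and Steap4 at 8.93 ± 0.333 were the lowest and overlapped. The unstimulated astrocyte libraries thus held RNA of all 9 genes. They also held RNA of fibroblast genes, and which cells held the RNA of the 9 was not tested.

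T/S/Z was then compared with DMSO to ask which of the 9 genes responded to the stimulus. It raised 6 of the 9, Lcn2, Ptx3, Steap4, Timp1, Tnc and C3, where 6.39% of the 13842 genes tested were called higher. Serpina3n shifted by less than the fold minimum, and Gfap and Vim were not called in either direction. The median change of the 9 was 1.46, beside -0.11 over all genes tested.

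Among the secreted innate immune proteins, Lcn2 had 11.7, 7.63 and 11.2 FPKM in the DMSO libraries, 11.5, 12.3 and 11.1 with Nec-1s, and 330.0, 446 and 334 with T/S/Z. Every T/S/Z library lay far above every unstimulated library, and the change was 5.06 (SE 0.18, limma adjusted p = 2.96e-06), a mean FPKM 36.3-fold higher. It was the 11th largest rise of the table. Ptx3 had 60.3, 74.0 and 66.7 FPKM with DMSO, 60.4, 52.3 and 60.7 with Nec-1s, and 778, 889.9 and 949 with T/S/Z. This was a change of 3.68 (SE 0.080, limma adjusted p = 3.13e-07), and it made Ptx3 the most abundant of the 9 after the filaments. C3 had 96.5, 108 and 111 FPKM with DMSO, 119.8, 107 and 124 with Nec-1s, and 282, 267 and 255 with T/S/Z, a change of 1.34 (SE 0.088, adjusted p = 4.43e-05). Serpina3n had 125, 125 and 135 FPKM with DMSO and 187, 186 and 172 with T/S/Z. Its groups did not overlap, but the change of 0.50 (SE 0.079, adjusted p = 0.00276) was 1.41-fold and was not called.

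Steap4, the metalloreductase, had 8.64, 9.30 and 8.86 FPKM with DMSO, 8.02, 9.24 and 7.99 with Nec-1s, and 108, 117 and 126 with T/S/Z. From the lowest level of the 9 it changed by 3.57 (SE 0.076, limma adjusted p = 3.05e-07), 13.1-fold in mean FPKM. The matrix genes moved less. Tnc had 108, 119 and 112 FPKM with DMSO and 344, 289.8 and 307 with T/S/Z, a change of 1.46 (SE 0.091, adjusted p = 3.63e-05). Timp1 had 111, 107 and 119.9 FPKM with DMSO and 305, 306 and 329.6 with T/S/Z, a change of 1.47 (SE 0.070, adjusted p = 1.05e-05). Tnc and Timp1 thus stood near each other with DMSO and again with T/S/Z.

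The filament genes, the classical markers of reactive astrocytes, were not among the genes called. Gfap had 2072, 1972 and 1969.8 FPKM with DMSO and 1856, 1727 and 1687 with T/S/Z. The T/S/Z libraries all lay below the DMSO libraries, yet the change of -0.19 (SE 0.097, adjusted p = 0.156) did not pass, and the median of all genes was itself -0.11. Vim had 4887, 5052 and 4268 FPKM with DMSO and 3916, 3839.6 and 4272 with T/S/Z, overlapping ranges with a change of -0.24 (SE 0.13, adjusted p = 0.187). The 3 genes not called with T/S/Z were the 3 most abundant of the list with DMSO.

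**Figure D1:**
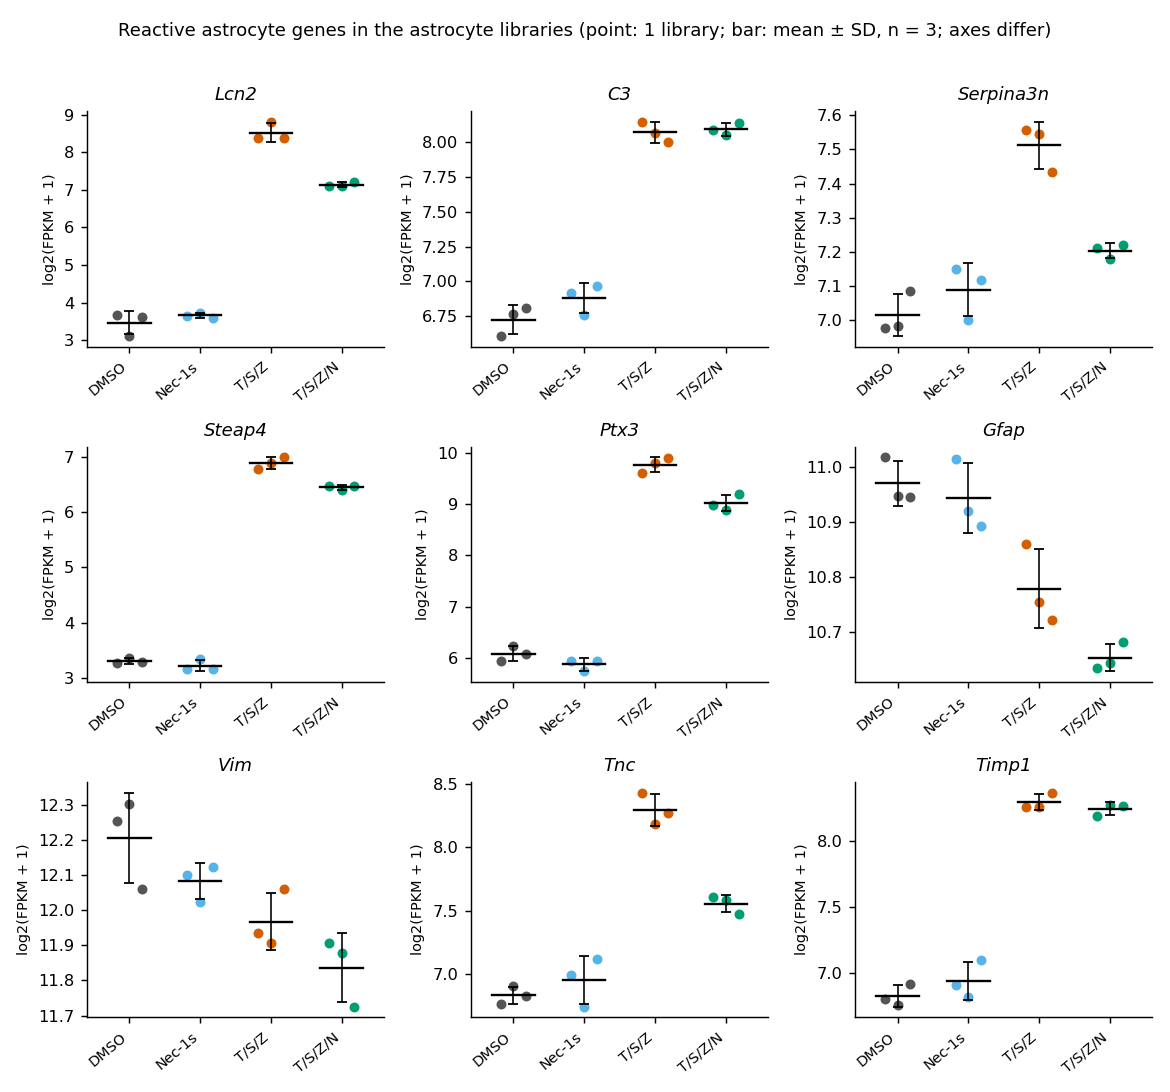
Each panel plots log2(FPKM + 1) of 1 gene in the 12 astrocyte libraries by treatment, with a point for each library and bars for the mean ± SD (n = 3), on axes that differ between panels. Lcn2, Ptx3 and Steap4 rise most from DMSO to T/S/Z. Timp1 and C3 stay at the T/S/Z level with Nec-1s, and the panels of Gfap and Vim span less than 1 log2 unit.

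Markers of other cells moved in the same libraries. All 6 fibroblast markers were called lower with T/S/Z, where 8.99% of genes tested were, and their summed FPKM went from 612 to 626 in DMSO libraries to 112 to 125 in T/S/Z libraries. Of the 12 microglial markers, 11 were tested and 6 called lower, and their sum went from 103 to 112 to 65.0 to 68.3. Of the 9 astrocyte markers, 2 were called lower and 7 were not called, and the sum was 1347 to 1404 with T/S/Z. Of 7 oligodendrocyte lineage markers 2 were called lower, 4 changes were above 0 and 3 below, with a median of 0.02, and the sum went without overlap from 100.2 to 117 FPKM with DMSO to 60.3 to 86.9 with T/S/Z. Both endothelial markers tested were called lower, and their sum went from 15.99 to 17.4 FPKM to 3.29 to 4.02. The 1 neuron marker tested was not called, and the astrocyte marker Aqp4 was at 0.50 (adjusted p = 0.00279), within the fold minimum. The part of these lists in the values of the 9 genes was not tested. When each gene's own variance was used without moderation, the calls of Lcn2, C3 and Tnc did not pass (adjusted p 0.0607 to 0.0663), and those of Ptx3, Steap4 and Timp1 did.

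To ask how much of the response required RIPK1 kinase activity, T/S/Z/N was compared with T/S/Z. Nec-1s lowered 3 of the 9 genes, Lcn2, Ptx3 and Tnc, where 1.59% of genes tested were called lower. Lcn2 had 136, 137 and 147 FPKM with T/S/Z/N, 37.8% of its T/S/Z mean, a change of -1.38 (SE 0.12, limma adjusted p = 0.00110), the 17th largest fall of the table. Ptx3 had 504, 469 and 584 FPKM, 59.5% of its T/S/Z mean (-0.75, SE 0.096, adjusted p = 0.00662). Tnc had 194, 191 and 177 FPKM, 59.7% (-0.74, SE 0.088, adjusted p = 0.00484). All 3 genes stayed above every DMSO library.

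The others were not called in this comparison. Steap4 had 87.4, 82.8 and 88.0 FPKM with T/S/Z/N, below every T/S/Z library, and its change of -0.44 (SE 0.085, adjusted p = 0.0297) was under the fold minimum. Serpina3n had 147, 144 and 148 FPKM, again without overlap (-0.31, SE 0.082, adjusted p = 0.0633). C3 had 272, 264 and 281 FPKM and Timp1 291, 309 and 308, both overlapping their T/S/Z libraries. Their changes were 0.02 (SE 0.086, adjusted p = 0.885) for C3 and -0.05 (SE 0.082, adjusted p = 0.718) for Timp1. C3 kept 102% and Timp1 96.6% of the T/S/Z mean. Gfap had 1588, 1599.7 and 1640.5 FPKM and Vim 3837, 3765 and 3383, with changes of -0.13 (adjusted p = 0.408) and -0.13 (adjusted p = 0.460).

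Against DMSO, T/S/Z/N still raised the same 6 genes that T/S/Z raised, where 4.36% of genes were called higher. Both contrasts use the same DMSO libraries. The changes with T/S/Z/N were 3.67 for Lcn2, 3.13 for Steap4, 2.93 for Ptx3, 1.42 for Timp1, 1.37 for C3 and 0.72 for Tnc, with limma adjusted p between 5.21e-06 and 0.000935. Serpina3n was at 0.19 (adjusted p = 0.0611). Gfap at -0.32 (adjusted p = 0.0198) and Vim at -0.37 (adjusted p = 0.0144) lay below every DMSO library but within the fold minimum. On the log2 means, Nec-1s took back 62.1% of the T/S/Z difference for Serpina3n, not called in either contrast, 50.6% for Tnc, 27.4% for Lcn2, 20.3% for Ptx3, 12.2% for Steap4, 3.36% for Timp1 and -1.67% for C3. These shares and their order hold for the log2 scale only. In mean FPKM, Lcn2 was 36.3-fold its DMSO level with T/S/Z and 13.7-fold with T/S/Z/N. For Tnc these ratios were 2.77 and 1.655. None of these 6 calls against DMSO passed with unmoderated variance (adjusted p 0.0540 to 0.0956), nor did the 3 calls against T/S/Z (0.219 to 0.236).

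Nec-1s alone served to separate an effect on the stimulus from an effect on resting cells. None of the 9 genes was called by limma, with changes from -0.21 to 0.20 and adjusted p of at least 0.857, where 0.0144% of genes, 2 in all, were called in either direction. None of the 9 had an unadjusted p under 0.05 either, while 790 of all genes tested had. The difference between the effect of Nec-1s after T/S/Z and its effect without a stimulus was then tested itself. Lcn2 (-1.58, SE 0.21, limma adjusted p = 0.00230) and Tnc (-0.86, SE 0.13, adjusted p = 0.00520) were called, 2 of the 9, where 1.61% of genes were called lower. Ptx3 at -0.54 (adjusted p = 0.0444) and Serpina3n at -0.39 (adjusted p = 0.0341) were within the fold minimum, and the other 5 did not pass. Without replicate 2 the fall of Ptx3 against T/S/Z was -0.66 (adjusted p = 0.0831), and without replicate 1 the difference for Tnc was -0.76 (adjusted p = 0.124). The difference for Tnc was also not called with unmoderated variance.

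**Figure D2:**
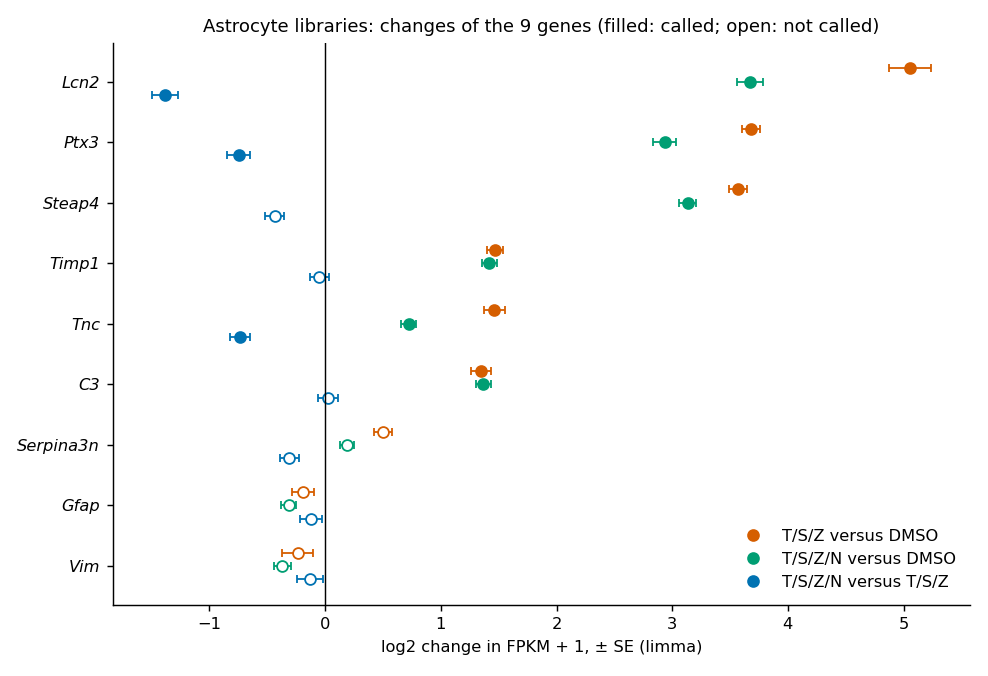
Log2 changes of the 9 genes in astrocytes, with SE bars from limma, for T/S/Z against DMSO, T/S/Z/N against DMSO and T/S/Z/N against T/S/Z. Filled points are called and open points are not. The 6 genes called with T/S/Z are also called with T/S/Z/N, and the points against T/S/Z of Lcn2, Ptx3 and Tnc are filled to the left of 0.

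All 6 fibroblast markers were called higher with T/S/Z/N against T/S/Z, where 1.51% of genes tested were, to a sum of 490 to 492 FPKM. Of the 11 microglial markers tested, 2 were called higher, and the sum over all 12 was 91.4 to 101. Of the 2 endothelial markers tested 1 was called higher, with a sum of 9.54 to 10.8 FPKM. These 3 sums thus moved towards DMSO as Lcn2, Ptx3 and Tnc did. None of the 7 oligodendrocyte lineage markers was called by limma (2 had an unadjusted p under 0.05), and their sum of 67.9 to 71.9 FPKM stayed below every DMSO library. The part of these lists in the falls of Lcn2, Ptx3 and Tnc was not tested. None of the 9 astrocyte markers was called by limma, and 3 of them had an unadjusted p under 0.05.

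Other genes of the reactive state were taken from lists chosen with earlier results of these data known. Of 7 further pan-reactive genes, which rise in many models, T/S/Z raised 5, beside 6.39% of all genes tested, and the median change was 1.04. The 2 largest rises were those of Cxcl10, a chemokine, at 7.49 (SE 0.096, limma adjusted p = 5.34e-08) and Cd44, the hyaluronan receptor, at 1.57 (SE 0.078, adjusted p = 1.30e-05). With Nec-1s, Cxcl10 differed from T/S/Z by -0.55 (adjusted p = 0.0330) and Cd44 by -0.39 (adjusted p = 0.0456), within the fold minimum, and 1 of the 7, the small heat shock protein gene Hspb1, was called lower (-0.63, adjusted p = 0.0158), beside 1.59% of all genes tested. Without a stimulus, Nec-1s differed from DMSO in Cxcl10 by -0.86 with no overlap (SE 0.10, adjusted p = 0.205), and the difference between its effects on Cxcl10 after T/S/Z and without a stimulus did not pass (0.31, adjusted p = 0.152). Of 11 genes of the neuroinflammatory set tested, 5 were raised and 1 lowered (median 0.58), beside 6.39% and 8.99% of all genes. The GTPase genes Gbp2, at 4.27 (SE 0.072, adjusted p = 1.49e-07), and Iigp1, at 3.31 (SE 0.13, adjusted p = 4.90e-06), rose most, and Ggta1, a galactosyltransferase gene, fell by 1.10 (SE 0.070, adjusted p = 3.86e-05). None of the 11 was called by limma in either direction with Nec-1s against T/S/Z, while 4 had an unadjusted p under 0.05. The differences were -0.02 for Gbp2 (adjusted p = 0.894), -0.27 for Iigp1 (adjusted p = 0.0818) and 0.25 for Ggta1 (adjusted p = 0.106).

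Of 11 genes of the ischaemia-associated set, 7 were raised by T/S/Z and 1 lowered (median 0.95), beside the same shares of all genes. Ptgs2, which encodes cyclooxygenase 2, changed by 2.92 (SE 0.12, limma adjusted p = 5.11e-06), Cd14, a lipopolysaccharide coreceptor gene, by 2.40 (SE 0.084, adjusted p = 2.53e-06) and Emp1, a membrane protein gene, by -0.70 (SE 0.074, adjusted p = 0.000484). Nec-1s lowered 3 of these 11 against T/S/Z, beside 1.59% of all genes. They were the sphingosine kinase gene Sphk1 (-1.10, adjusted p = 0.00112), Cd14 (-0.96, adjusted p = 0.00156) and the transglutaminase gene Tgm1 (-0.80, adjusted p = 0.0152), while Ptgs2 was at -0.34 (adjusted p = 0.0568) and Emp1 at -0.13 (adjusted p = 0.324). Of 12 genes of inducers, receptors and signalling, T/S/Z raised 7 and lowered 1 (median 0.85). The cytokine gene Il1a changed by 3.11 (SE 0.11, adjusted p = 3.14e-06), Nfkbiz, a nuclear regulator of NF-kappaB, by 3.02 (SE 0.088, adjusted p = 1.08e-06) and the complement gene C1qa, also a microglial marker, by -0.68 (SE 0.11, adjusted p = 0.00280).

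Nec-1s lowered 5 of those 12 against T/S/Z, beside 1.59% of all genes tested. Il1a fell by 2.63 (SE 0.099, limma adjusted p = 4.00e-05), Tnf by 1.65 (SE 0.15, adjusted p = 0.00165), Nfkbiz by 1.40 (SE 0.085, adjusted p = 0.000276), the transcription factor gene Cebpd by 0.76 (SE 0.16, adjusted p = 0.0367) and the receptor gene Il1r1 by 0.73 (SE 0.088, adjusted p = 0.00512). C1qa was at 0.56 (adjusted p = 0.0288), within the fold minimum. Il1a and Tnf lay under a log2 value of 1 in every DMSO and Nec-1s library, and Il1a in every T/S/Z/N library too, so they passed the filter on low values only through the groups where they were high.

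The genes with the most similar profiles over the 12 astrocyte libraries were found by Pearson correlation of log2 values, as a description only, since the libraries share 4 treatments. They were Cxcl1 (0.997) and Plk2 (0.996) for Lcn2, Cxcl11 (0.999) and Tlr2 (0.998) for Steap4, and Pde4b (0.997) and Nfkb1 (0.997) for Ptx3. For C3 they were Lix1l (0.996) and Icam1 (0.993), for Timp1 Eif4e3 (0.997) and Gbp4 (0.996), for Tnc Runx1 (0.994) and Mfhas1 (0.993), and for Serpina3n Sphk1 (0.986) and Tnf (0.979). The filament genes had other neighbours, Klk10 (0.986) and Aldh1l1 (0.984) for Gfap and Syt6 (0.954) and Apln (0.935) for Vim. Within the 9, Gfap correlated at 0.77 with Vim and at -0.83 with Ptx3.

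In microglia the same genes were examined with both stimuli. Steap4 did not pass the filter on low values, being at or over a log2 value of 1 in 2 of 24 libraries, so 8 of the 9 genes were tested. Ptx3 passed only through the stimulated groups. In the microglial table, gene means of replicates 1 to 3 had been set to those of replicate 4, which left log2 values under 0 for Steap4 and Ptx3 and adds uncertainty to low values. T/5z raised 5 of the 8 (Ptx3, Lcn2, Gfap, Serpina3n and Timp1), where 11.1% of 10524 genes were called higher, and T/S/Z raised 6 (the same 5 and Tnc), where 12.2% were. Both contrasts share the DMSO libraries.

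Ptx3 had log2 values of -0.02, 0.08, 0.23 and 0.59 with DMSO, 4.02, 4.32, 3.90 and 3.35 after T/5z, and 3.25, 2.98, 3.00 and 3.63 with T/S/Z. It was at or near 0 in unstimulated libraries. Its change was 3.68 with T/5z (SE 0.22, limma adjusted p = 1.26e-05), and T/S/Z gave 2.996 (SE 0.099, adjusted p = 3.19e-07). Lcn2 had 1.44, 1.34, 1.65 and 1.23 with DMSO, 3.50, 3.71, 2.90 and 2.71 after T/5z, and 3.22, 3.10, 2.87 and 3.26 with T/S/Z. Its changes were 1.79 (SE 0.18, adjusted p = 0.000142) and 1.69 (SE 0.13, adjusted p = 1.35e-05). Steap4, not tested, lay between -0.47 and 0.06 in DMSO libraries. It reached 0.33 to 1.18 after T/5z, and 0.43 to 0.91 was its range after T/S/Z.

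The remaining calls were small and at low levels. Serpina3n had 2.38 to 2.77 FPKM in DMSO libraries, 3.44 to 5.45 after T/5z and 3.82 to 7.10 after T/S/Z. It changed by 0.69 (SE 0.11, limma adjusted p = 0.00103) and 0.78 (SE 0.12, adjusted p = 0.000599). Timp1 had 5.68 to 6.72 FPKM in DMSO libraries, 8.02 to 12.0 after T/5z and 8.55 to 14.04 with T/S/Z. It changed by 0.61 (SE 0.10, adjusted p = 0.00179) and 0.60 (SE 0.10, adjusted p = 0.00114), just over the fold minimum. Tnc had 3.44 to 4.57 FPKM in DMSO libraries, 5.13 to 7.78 after T/5z and 6.20 to 11.6 after T/S/Z, without overlap with DMSO. It changed by 0.91 (SE 0.12, adjusted p = 0.000236) with T/S/Z and was at 0.51 (adjusted p = 0.00469) with T/5z, under the fold minimum. With 5 in place of 1 added to FPKM before the log, Ptx3 and Lcn2 alone were called with either stimulus. The call of Timp1 was also lost without replicate 2 (0.56) or replicate 3 (0.54) in T/5z and without replicate 4 (0.49) in T/S/Z, and Tnc was called in T/5z without replicate 4 (0.64) and after quantile normalization (0.66).

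C3 and Vim, the abundant members in microglia, were not called with either stimulus. C3 had 166, 151, 146 and 143 FPKM with DMSO, 208, 220, 198 and 239.8 after T/5z, and 179, 182, 211 and 179.7 with T/S/Z. No stimulated library reached down to a DMSO library, but the changes of 0.51 (SE 0.070, limma adjusted p = 0.000659) and 0.31 (SE 0.068, adjusted p = 0.00435) were under the fold minimum. Vim had 289, 309, 301 and 349 FPKM with DMSO, 273, 249, 215 and 177 after T/5z, and 376, 337, 454 and 460.4 with T/S/Z. It was lower than every DMSO library with T/5z (-0.46, SE 0.13, adjusted p = 0.0176) and overlapped DMSO with T/S/Z (0.37, SE 0.072, adjusted p = 0.00220). The T/5z change of Vim was called without replicate 1 (-0.59) and after quantile normalization (-0.70), and was -0.29 without replicate 4. After quantile normalization the T/S/Z changes turned sign, to -0.11 for C3 and -0.08 for Vim, and neither was called.

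The stimuli were compared with each other directly. T/S/Z libraries exceeded T/5z libraries in Vim by 0.84 in all 4 pairs (SE 0.16, limma adjusted p = 0.00530). For Ptx3 the difference was -0.68 with overlapping ranges, in 3 of 4 pairs (SE 0.23, adjusted p = 0.0478). These 2 of the 8 were called, where 9.83% of genes were called in either direction. Ptx3 kept its call under 3 of 11 alternatives. It was lost without replicate 1 (adjusted p 0.120), 2 (0.147) or 3 (0.157), with 5 added before the log, without the filter on low values, after centring or quantile normalization and with unmoderated variance. Tnc was called without replicate 2 (0.63). Vim was not called with unmoderated variance.

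**Figure D3:**
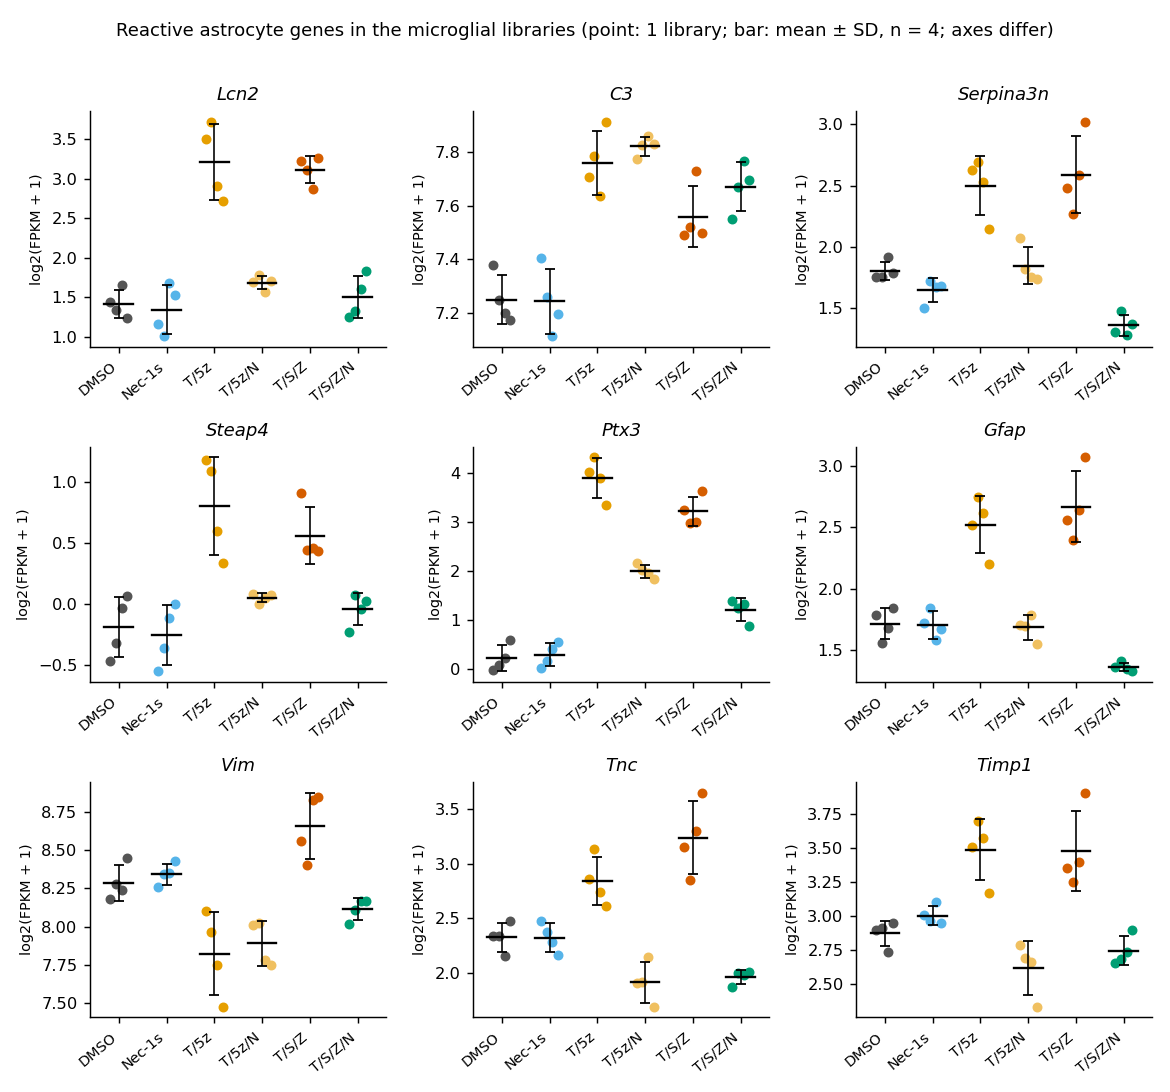
Each panel plots log2(FPKM + 1) of 1 gene in the 24 microglial libraries by treatment, with a point for each library and bars for the mean ± SD (n = 4), on axes that differ between panels. Ptx3 and Lcn2 stand apart from DMSO with both stimuli and lie near DMSO again with Nec-1s for Lcn2, C3 keeps the level of the stimulus with Nec-1s, and Vim lies below its DMSO libraries after T/5z and overlaps them with T/S/Z.

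Nec-1s lowered 6 of the 8 genes after T/5z, where 4.52% of genes were called lower, and the same 6 after T/S/Z, where 6.72% were. They were Ptx3, Lcn2, Tnc, Timp1, Gfap and Serpina3n. Lcn2 had 1.69, 1.78, 1.57 and 1.70 with T/5z/N and 1.25, 1.32, 1.60 and 1.83 with T/S/Z/N, on the log2 scale. Its changes were -1.52 (SE 0.14, limma adjusted p = 8.61e-05) after T/5z and -1.61 (SE 0.11, adjusted p = 3.20e-05) when added to T/S/Z. Ptx3 had 2.16, 2.02, 1.96 and 1.83 with T/5z/N and 1.39, 1.25, 1.34 and 0.88 with T/S/Z/N. Its changes were -1.91 (SE 0.11, adjusted p = 7.42e-06) and -2.001 (SE 0.17, adjusted p = 6.58e-05). The falls of the other 4 lay between -0.65 and -0.93 after T/5z and between -0.73 and -1.31 after T/S/Z, and that of Serpina3n after T/5z was not called without replicate 2 (-0.58). With 5 added before the log, the falls of Serpina3n, Gfap and Tnc after T/5z and of Timp1 after T/S/Z were under the fold minimum.

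C3 was not called with the inhibitor in microglia either. It had 218, 226, 231 and 226 FPKM with T/5z/N (0.06 against T/5z, SE 0.053, limma adjusted p = 0.363) and 187, 202, 217 and 206 with T/S/Z/N (0.11 against T/S/Z, SE 0.049, adjusted p = 0.0828). Vim had 257, 275, 287 and 287 FPKM with T/S/Z/N, below every T/S/Z library, with a change of -0.54 (SE 0.074, adjusted p = 0.000583) under the fold minimum. It was called without replicate 2 (-0.63) and when centred on the library median (-0.62), and was -0.26 after quantile normalization, not called. After T/5z, Vim was at 0.07 (SE 0.059, adjusted p = 0.359). The difference between these effects of Nec-1s was called for Vim alone (-0.61, SE 0.18, adjusted p = 0.0237), 1 of the 8, where 3.77% of genes were called lower. It was lost without replicate 3 (adjusted p 0.0888) or 4 (0.0692), after quantile normalization and with unmoderated variance, and Serpina3n was called without replicate 2 (-0.79, adjusted p 0.0354).

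Against DMSO, only Ptx3 of the 8 was called with T/5z/N (1.77, SE 0.15, limma adjusted p = 3.50e-05), where 6.16% of genes were called higher, and only Ptx3 with T/S/Z/N (1.00, SE 0.17, adjusted p = 0.00264), where 6.20% were. The latter was not called with 5 added before the log (0.29) or with unmoderated variance. Ptx3 passed the filter on low values only through the stimulated groups, so its calls against DMSO are not independent of that filter. Lcn2 was at 0.27 (adjusted p = 0.0788) and 0.08 (adjusted p = 0.642). C3 was at 0.57 (adjusted p = 0.000112) with T/5z/N, called only without replicate 1 (0.63) or after centring on the library median (0.59), and at 0.42 (adjusted p = 0.00298) with T/S/Z/N. Nec-1s alone called 0% of genes and none of the 8 by limma, while 892 genes and 1 of the 8, Serpina3n (-0.16, adjusted p = 0.584), had an unadjusted p under 0.05.

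Gfap, an astrocyte filament gene, was also called in the microglial libraries. It had 1.78, 1.55, 1.68 and 1.85 with DMSO, 2.52, 2.75, 2.62 and 2.20 after T/5z, and 2.56, 2.40, 2.65 and 3.07 with T/S/Z, on the log2 scale. Its changes were 0.81 (SE 0.13, limma adjusted p = 0.00152) and 0.95 (SE 0.092, adjusted p = 5.49e-05). With Nec-1s it had 1.71, 1.70, 1.79 and 1.54 after T/5z and 1.36, 1.41, 1.35 and 1.32 when added to T/S/Z, changes of -0.84 (SE 0.079, adjusted p = 8.81e-05) and -1.31 (SE 0.12, adjusted p = 8.77e-05). Astrocyte markers that are no part of the 9 moved alongside. Aqp4, a water channel gene, changed by 1.502 after T/5z and 1.02 with T/S/Z, Slc1a3, a glutamate transporter gene, by 0.97 and 0.86, and Gja1, a gap junction gene, by 0.85 and 0.94. All were called higher, but they lay under a log2 value of 1 in every DMSO and Nec-1s library and passed the filter only through the groups with a stimulus. With Nec-1s they fell by 1.09, 0.72 and 0.84 after T/5z and by 1.16, 0.90 and 1.03 when it was added to T/S/Z, all called. They were 3 of the 6 astrocyte markers tested. Of the other 3, Glul was called higher with T/5z/N against T/5z (0.59, just past the fold minimum), where 2.64% of genes were, and Aldh1l1 and Aldoc were not called, and with T/S/Z/N against T/S/Z, where 5.35% of genes were called higher, none of these 3 was called by limma (0.35 for Glul, -0.35 for Aldh1l1 and -0.46 for Aldoc), though all 3 had an unadjusted p under 0.05.

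Of the 9 astrocyte markers, 6 were tested in microglia and with each stimulus 3 were called higher, 1 (Glul) lower and 2 (Aldh1l1 and Aldoc) not, where T/5z called 11.1% of genes tested higher and 13.3% lower, and T/S/Z 12.2% and 17.5%. Glul, which stood at 112% of its astrocyte level in DMSO microglia, changed by -1.32 after T/5z and -0.86 with T/S/Z and carried the summed list down from 173 to 232 FPKM with DMSO to 77.6 to 101 after T/5z and 106 to 127 with T/S/Z. Slc1a2, S100b and Sox9 stayed under a log2 value of 1 in all 24 libraries. The summed microglial markers were 9375 to 10504 FPKM with DMSO, 9348 to 10712 after T/5z and 9747 to 10533 with T/S/Z. Their share of the total FPKM was 1.99% to 2.16% with DMSO, 1.88% to 2.04% after T/5z and 1.71% to 1.83% with T/S/Z. Of the 12, all tested, T/5z called 2 higher and 2 lower, and T/S/Z 1 higher. Of 6 fibroblast markers, the 4 tested were called higher with T/5z and none with T/S/Z. The sum over all 6 was 12.7 to 21.7 FPKM with T/5z and 5.07 to 8.33 with T/S/Z. Of the 3 oligodendrocyte lineage markers tested, T/5z called 1 higher and 1 lower, and T/S/Z 2 higher. The sum over the 7 with values, tested or not, was 30.6 to 32.6 FPKM with DMSO. It was 25.6 to 29.6 after T/5z and 27.5 to 37.7 with T/S/Z. Of the 2 endothelial markers tested, 1 was called lower with T/5z and both with T/S/Z. The sum over the 3 endothelial markers with values, tested or not, was 6.28 to 8.56 FPKM with DMSO. It was 3.71 to 5.17 after T/5z and 2.30 to 2.92 with T/S/Z. The 1 neuron marker tested was called by limma with neither stimulus, with an unadjusted p under 0.05 for both.

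With Nec-1s added to T/5z, 2 of the 4 fibroblast markers tested were called lower. None was called by limma with Nec-1s added to T/S/Z, where 3 of the 4 had an unadjusted p under 0.05. The sum over all 6 fibroblast markers was 7.27 to 9.20 FPKM with T/5z/N and 3.54 to 5.80 with T/S/Z/N. Of the 3 oligodendrocyte lineage markers tested, 1 was called lower with T/5z/N against T/5z, and with T/S/Z/N against T/S/Z 2 were called lower and 1 higher. The sum over the 7 with values was 26.7 to 30.5 FPKM with T/5z/N and 31.2 to 32.0 with T/S/Z/N. Neither the 2 endothelial markers nor the 1 neuron marker tested were called by limma in these comparisons, with an unadjusted p under 0.05 for 0 and 1 of them after T/5z and for 1 and 1 after T/S/Z. Of the 12 microglial markers, 1 was called higher and 1 lower after T/5z and 1 higher after T/S/Z. Over all genes tested, 2.64% were called higher and 4.52% lower with T/5z/N against T/5z. With T/S/Z/N against T/S/Z, these shares were 5.35% and 6.72%. The part of these lists in the values of Gfap, Serpina3n, Tnc, Timp1, Lcn2 and Ptx3 in microglia was not tested.

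**Figure D4:**
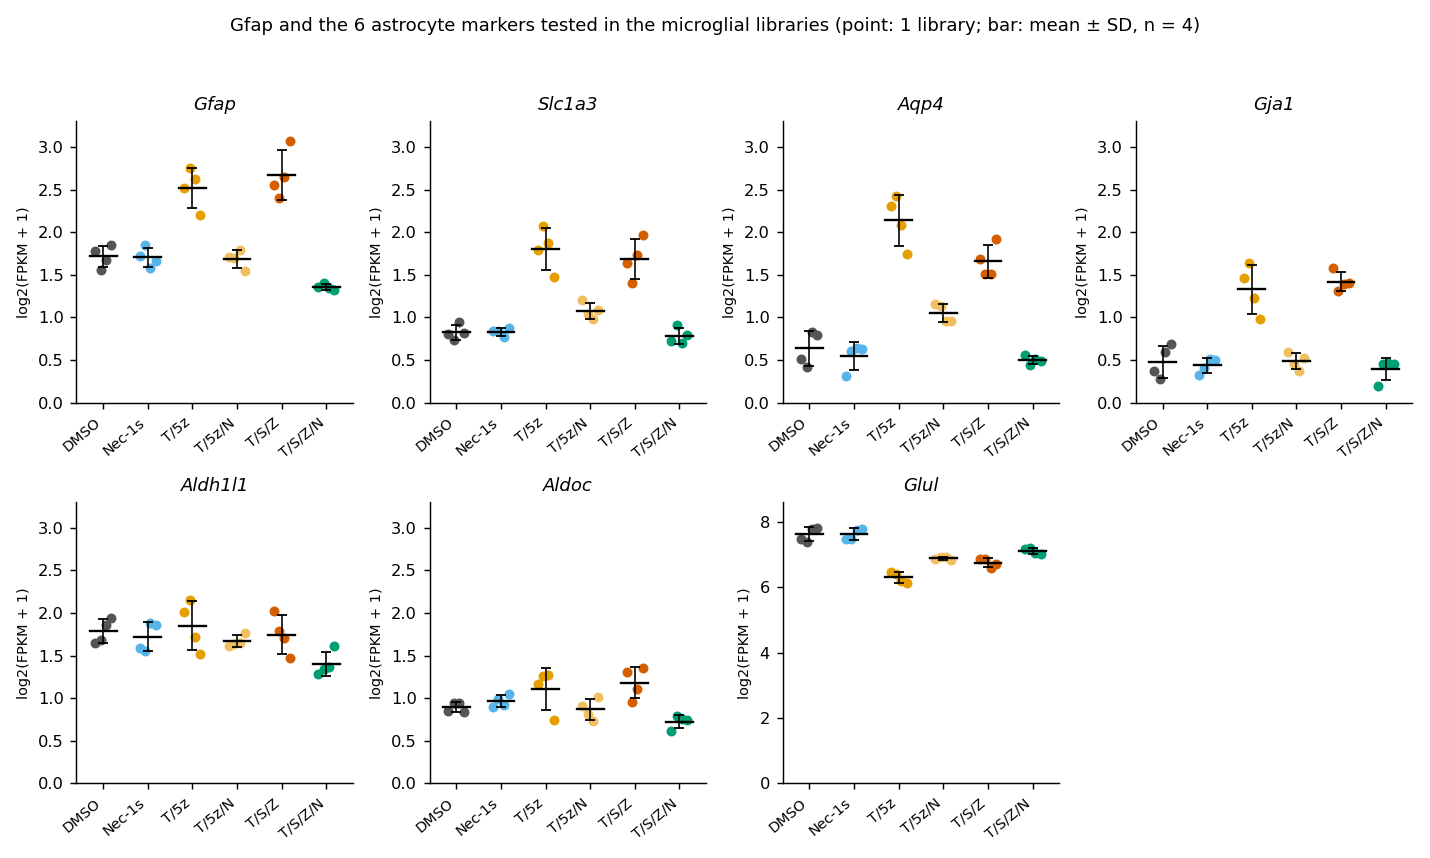
Log2(FPKM + 1) of Gfap and of the 6 astrocyte markers tested in the 24 microglial libraries by treatment, with a point for each library and bars for the mean ± SD (n = 4), on a shared axis except for Glul. Gfap, Slc1a3, Aqp4 and Gja1 are higher after T/5z and with T/S/Z than with DMSO and lower with Nec-1s added than with the stimulus alone, Glul lies lower after both stimuli, and Aldh1l1 and Aldoc were not called.

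Finally, levels were set side by side across the tables, without a test. In DMSO microglia, Gfap stood at 0.114% of its DMSO astrocyte level, and the 9 astrocyte markers stood between 0.155% (Gja1) and 112% (Glul), with Aqp4 at 0.174%, Slc1a3 at 0.315%, Aldoc at 0.349%, Sox9 at 0.622%, S100b at 0.976%, Slc1a2 at 1.08% and Aldh1l1 at 2.20%. Serpina3n stood at 1.95%, Tnc at 3.56%, Timp1 at 5.63%, Vim at 6.59% and Lcn2 at 16.6%, though the exon models of Lcn2 and Vim differed. C3 had 151.5 FPKM in DMSO microglia and 105 in DMSO astrocytes, and 188 and 268 with T/S/Z. The 75th percentile of log2 values was 4.11 to 4.16 in microglia and 4.73 to 4.74 in astrocytes. No order of C3 between the cell types is therefore read from these values. Lcn2 was 7.69 FPKM in T/S/Z microglia and 370.2 in T/S/Z astrocytes. Adding Nec-1s to T/S/Z left 1.86 and 139.9, so the level that remained was near that of DMSO microglia (1.69) but 13.7-fold that of DMSO astrocytes.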

How the data were processed

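RNA was measured by polyadenylated RNA sequencing in 12 astrocyte and 24 microglial libraries. The authors processed the reads with OmicSoft Array Studio, and the deposited table of each cell type holds log2 of FPKM plus 1, scaled to a common 75th percentile (4.73 to 4.74 in astrocytes, 4.11 to 4.16 in microglia). In the microglial table, gene means of replicates 1 to 3 equalled those of replicate 4 (largest difference 6.67e-05), a step the methods do not describe, which left 187 to 1438 negative values in each of those libraries. Counts and depth are not given in the sources used here. Low values lay near whole multiples of a step (tolerance 0.1, 20.0% by chance) in 68.1% to 83.6% of cases in astrocytes, in 17.6% to 22.3% in microglial replicates 1 to 3 and in 67.0% to 71.2% in microglial replicate 4, so whole reads were not recovered and precision rests on the replicates. The methods describe replicates of cultured cells as cells from separate litters, and no label ties a library to a litter.

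Genes with a log2 value of at least 1 in at least 3 astrocyte or 4 microglial libraries were tested (13842 and 10524). Groups came from the labels. Groups were compared by limma 3.58.1 (R 4.3.3; lmFit, eBayes with trend) on the libraries of the compared groups, blocked on replicate number, as the study's own test was paired, in 12 comparisons and 2 tests of a difference between effects, 2-sided, with Benjamini-Hochberg adjustment over all genes tested. The fit was tested on simulated data. FPKM was computed as 2 to the deposited value less 1, and changes on the log2 scale understate those of low genes. The genes named were the 9 members, the called genes with the 2 largest rises and 2 largest falls of each list with T/S/Z in astrocytes, the 2 most correlated genes for each member and defining cell type markers, and lists called lower with Nec-1s were named after their values were seen. The members, lists and motifs were chosen with earlier results of these data known. Alternatives were the pseudocount, the filter, scaling, variance, block, the libraries in the fit and leaving out replicates. Figures were drawn with Python 3.11.15 and matplotlib 3.10.9.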

Additional observations from a re-analysis of the deposited data

Results flagged for a closer look

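A library stood apart from the other 3 of its group in 3 of the 54 groups of 4 examined (9 genes in 6 microglial treatments), by the gap to its neighbour as a share of the group's range, and chance gives about 1 in 20. The share was 0.877 for C3 with T/S/Z in replicate 3 (the highest), 0.935 for Steap4 with T/S/Z in replicate 1 (the highest) and 0.842 for Tnc with T/S/Z/N in replicate 1 (the lowest).

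Effects that differed between conditions by a test of the difference were those of Nec-1s in astrocytes, larger after T/S/Z than without a stimulus by -1.58 for Lcn2 and -0.86 for Tnc, and that of Nec-1s in microglia on Vim, lower after T/S/Z than after T/5z by -0.61. Levels in microglia differed between T/S/Z and T/5z by 0.84 for Vim and -0.68 for Ptx3, and the latter was called under 3 of 11 alternatives.

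Between cell types, over the 4 comparisons that both had, some changes went one way in every astrocyte pair and the opposite way in every microglial pair. Pairs were matched by replicate number, which was not shown to pair the libraries. The share of all genes that did so was not computed. The difference was not tested since the tables were normalized separately. With T/S/Z against DMSO, Gfap was at -0.19 in astrocytes, not called, and at 0.95 in microglia, called. With T/S/Z/N against DMSO, Timp1 was at 1.42 in astrocytes and -0.13 in microglia, Tnc at 0.72 and -0.36, and Serpina3n at 0.19 and -0.44. Of these 3, Timp1 and Tnc were called in astrocytes and none was called in microglia. With Nec-1s against DMSO, Serpina3n was at 0.076 in astrocytes and -0.16 in microglia, called in neither.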

How the results depend on the processing

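Among alternatives to each change of a member, 1216 kept direction and call, 45 lost and 11 gained a call, and 33 uncalled changes turned sign without being called. No called change turned. With unmoderated variance the members called numbered 3 for T/S/Z, 0 for T/S/Z/N against T/S/Z, 0 for T/S/Z/N against DMSO and 1 for the difference test in astrocytes, and in microglia 0 for T/S/Z/N against DMSO, 0 for T/S/Z against T/5z and 0 for the difference test. With 5 added before the log, microglia had 2 for T/5z, 2 for T/S/Z, 3 for T/5z/N against T/5z, 0 for T/S/Z/N against DMSO and 1 for T/S/Z against T/5z. A mean log2 value of at least 3 left 3 members tested in microglia, with 1 called for T/5z, T/S/Z, T/5z/N against T/5z, T/S/Z/N against T/S/Z and T/S/Z against T/5z, and 0 for either stimulus with Nec-1s against DMSO. Centring on the library median gave 2 for T/5z/N against DMSO, 1 for T/S/Z against T/5z and 2 for the microglial difference test, quantile normalization gave 1 and 0 for the last pair, and no filter gave 1 for T/S/Z against T/5z. Leaving out each replicate gave 1 to 2 for T/5z/N against DMSO, 1 to 2 for T/S/Z against T/5z, 1 to 2 for the astrocyte and 0 to 2 for the microglial difference test. Unless the members tested or the construction of the setting shows it, the cause was not tested.

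Over all genes, unmoderated variance took the calls in astrocytes from 2130 to 281 for T/S/Z, 1257 to 50 for T/S/Z/N against DMSO, 429 to 3 for T/S/Z/N against T/S/Z and 466 to 200 for the difference test. Without a replicate the last pair ranged from 274 to 761 and from 90 to 545. With 5 added before the log, and with the mean filter, these 4 counts were 985 and 1094, 542 and 639, 180 and 225, and 196 and 280. Microglial counts were 1485 and 1463 of 2563 for T/5z, 1633 and 1705 of 3118 for T/S/Z, 314 and 385 of 754 for T/5z/N against T/5z, 514 and 628 of 1270 for T/S/Z/N against T/S/Z, 809 and 851 of 1352 and 861 and 915 of 1481 for these against DMSO, 611 and 652 of 1035 for T/S/Z against T/5z and 396 and 426 of 681 for the difference test. Nec-1s alone had 2 calls in astrocytes, 10 with the mean filter, and 0 to 16 without a replicate. The split of higher and lower calls, 885 and 1245 for astrocyte T/S/Z, was 999 and 917 after quantile normalization, and 604 and 653 for T/S/Z/N against DMSO became 686 and 474. In microglia, 1280 and 1838 for T/S/Z became 1564 and 1406 after centring, and 563 and 707 for T/S/Z/N against T/S/Z became 351 and 862.

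In astrocytes, same-numbered libraries had correlations of deviations from -0.14 to 0.41 (median 0.041), and 6 of 12 libraries correlated best with their own number, so the numbers were not shown to pair the libraries. In microglia the pairing could not be checked, since the setting of gene means of replicates 1 to 3 to those of replicate 4 removes any deviation that same-numbered libraries share. Without the replicate block the members called were 6 for astrocyte T/S/Z, 3 for T/S/Z/N against T/S/Z and 6 for T/S/Z/N against DMSO, and no count of members moved.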
